A study of Mus musculus with 32 samples.

Results

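The RASSF family holds the 10 mouse genes Rassf1 to Rassf10, and all 10 were found by symbol among the 55938 genes of the deposited count table. Rassf10 came to notice through its call in the astrocyte libraries 3 weeks after fracture against uninjured mice, so its values in that contrast are given here as a description and not as a test. The other 9 genes were chosen by name. The data come from 32 RNA libraries of lumbar spinal cord of male and female mice labelled Aldhl1l-CreER;Rpl22-HA, a genotype that all groups share. In these mice an inducible Cre recombinase under the astrocyte promoter of Aldh1l1 switches on a haemagglutinin tag on Rpl22, a protein of the large ribosomal subunit. The Trap libraries (24) hold RNA pulled down with tagged ribosomes through an antibody to the tag, and the Input libraries (8) hold RNA of the homogenised tissue before pull-down. Mice were uninjured or were taken 3, 5 or 7 weeks after a fracture used as a model of Complex Regional Pain Syndrome. Each sex and state had 3 Trap libraries and 1 Input library. Strain, age and Cre induction are not given in the sources used here, nor is it given whether each library is 1 mouse, and the tests below measure the spread among libraries, which may in part be technical.

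RASSF proteins carry a Ras association domain, through which several of them bind active Ras or Rap GTPases, but they are scaffolds and not enzymes. Rassf1 to Rassf6 carry this domain towards their C-terminal end together with a SARAH domain, a coiled helix that pairs with the same domain in the Hippo kinases Mst1 and Mst2, encoded by Stk4 and Stk3. Those kinases act through the Lats kinases to keep the coactivators Yap1 and Taz (encoded by Wwtr1) out of the nucleus. Rassf7 to Rassf10 carry the Ras association domain at their N-terminal end and lack the SARAH domain. RASSF10 is described as a tumour suppressor in human cells, and its promoter is often methylated in human astrocytic gliomas.

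The pull-down was checked with Aldh1l1, which averaged 747 ± 73.9 CPM in Trap and 56.4 ± 5.11 CPM in Input (SD, n = 24 and 8), where CPM is the count of a gene scaled to library size by the trimmed mean of M-values (TMM). Rpl22 averaged 64.1 ± 6.84 CPM in Trap and 37.4 ± 0.887 CPM in Input. The Trap libraries held 17124018 to 23189205 counts each and the Input libraries 17981112 to 22907873, so that 1 CPM stands for 17.1 to 23.2 counts. All 15 astrocyte markers were higher in Trap, and all 14 neuron, 12 oligodendrocyte and 13 microglia markers were lower, yet none of these markers was at 0 in every Trap library. Summed neuron markers came to 714 to 1402 CPM in Trap and 7632 to 9107 CPM in Input, and all 8 blood markers tested were higher in Trap. Median sums were higher in Trap than in Input for oligodendrocyte precursors (876 against 444 CPM) and mural and meningeal cells (294 against 106 CPM). They were also higher for ependymal cells (45.9 against 35.3 CPM) and Schwann cells (129 against 89.5 CPM), with overlapping ranges. The endothelial median was lower (12.7 against 106 CPM). RNA of other cell types was thus detected in Trap, and its part in the Trap levels of the RASSF genes was not tested. A pair of Trap libraries stood apart in earlier work on these data. The female 3 week replicate 3 had the lowest astrocyte sum, 55179 CPM against 59215 to 73776 CPM in the 22 Trap libraries outside this pair, and a neuron sum of 1402 CPM against 714 to 1251 CPM. The male 7 week replicate 2 had an astrocyte sum of 66105 CPM, within that range. Its microglia sum of 80.2 CPM and that of the female library, 76.9 CPM, lay above the 57.0 to 75.8 CPM of the other 22.

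Rassf10 (ENSMUSG00000098132.1) lies on the plus strand of chromosome 7, from 112953962 to 112957457 in GRCm38, as 1 transcript of 1 exon and 3496 bases, with no annotated gene overlapping its exon. Its protein belongs to the N-terminal class of the family. In Trap of uninjured mice Rassf10 had 3.33, 3.77 and 3.73 CPM in males and 2.44, 3.63 and 3.83 CPM in females. At 3 weeks it had 6.09, 4.98 and 7.27 CPM in males and 7.17, 5.61 and 7.34 CPM in females. All 6 libraries at 3 weeks lay above the highest uninjured library, in each sex taken alone as well. These are the values through which the gene was chosen, and the share of all genes so separated is not given here. At 5 weeks it had 5.23, 4.57 and 4.02 CPM in males and 5.46, 4.31 and 2.55 CPM in females. At 7 weeks it had 4.77, 4.01 and 4.89 CPM in males and 6.06, 4.24 and 3.64 CPM in females. At both later times 5 of 6 libraries lay above the highest uninjured one and the ranges overlapped. The uninjured libraries had a share in choosing the gene, so these counts too are a description. The counts behind these values ran from 47 to 152 per library.

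**Figure D1:**
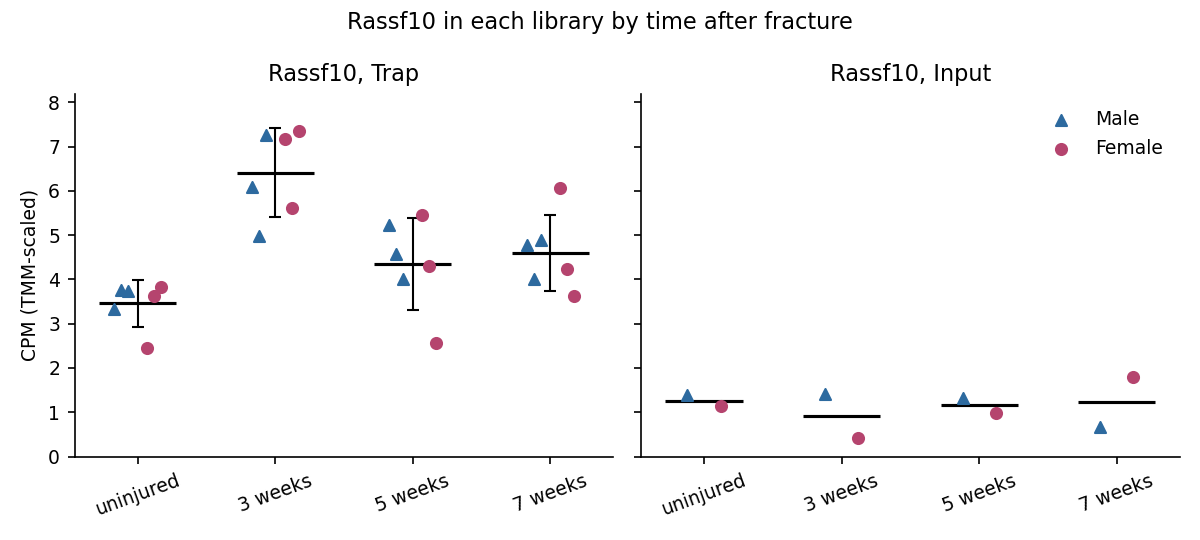
Rassf10 in each library, in TMM-scaled CPM (y axis), by time after fracture (x axis), in Trap at the left and Input at the right. Triangles are male and circles female libraries, horizontal lines are means and bars are SDs (Trap, n = 6 a state; Input has 2 libraries a state and no bars). All 6 Trap libraries at 3 weeks sit at 4.98 CPM or higher, above the highest uninjured library at 3.83 CPM, while Input libraries stay between 0.419 and 1.80 CPM. The Trap values at 3 weeks and in uninjured mice are those through which the gene was chosen.

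The mean level of Rassf10 in Trap was 3.46 ± 0.526 CPM in uninjured mice, 6.41 ± 0.999 CPM at 3 weeks, 4.36 ± 1.04 CPM at 5 weeks and 4.60 ± 0.853 CPM at 7 weeks (SD, n = 6 each). The log2 difference of 3 weeks from uninjured was 0.89 ± 0.17 (SE), with an adjusted p of 0.0239 in edgeR's quasi-likelihood test with Benjamini-Hochberg adjustment over all genes tested. That is the value through which the gene was chosen, and nothing is read from it. A gene was called at an adjusted p under 0.05, and 0.111% of the 15380 genes tested in Trap were called at 3 weeks (17 genes, 5 higher and 12 lower). Over the fits that left out 1 of the 12 libraries compared, the difference of Rassf10 ran from 0.81 to 0.97 and the gene was called in 5 of 12, with adjusted p from 0.0231 to 0.116. It lost its call without the uninjured female replicate 1 (adjusted p 0.116), without any 1 of the 3 uninjured male replicates (0.0753, 0.0680 and 0.0597), without the female 3 week replicate 1 (0.0689) and without the male 3 week replicates 1 (0.0818) or 3 (0.0571). These fits reuse the values through which the gene was chosen, so they are a description with no test.

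Rassf10 was not called at the later times. Its log2 difference from uninjured was 0.33 ± 0.18 at 5 weeks (unadjusted p 0.0761, adjusted p 1.00) and 0.41 ± 0.18 at 7 weeks (unadjusted p 0.0311, adjusted p 1.00). Its values at these times are a description and no independent test, since these contrasts use the uninjured libraries through which the gene was chosen. Beside them 0.00% of genes were called at 5 weeks, where edgeR called 0 genes, DESeq2 called 1 and 425 had an unadjusted p under 0.05. At 7 weeks 0.00% were called too, by edgeR and DESeq2 alike, and 438 had an unadjusted p under 0.05. The log2 difference of 7 weeks from 3 weeks was -0.49 ± 0.16, a description with no test, since it uses the 3 week libraries through which the gene was chosen. Of the other 7 members tested between these times 0 were called, beside 0.0195% of all genes.

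Between the sexes Rassf10 differed by 0.03 ± 0.12 on the log2 scale (male minus female, adjusted p 0.948), where 0.195% of genes were called. The 3 week fracture effect in males minus that in females was -0.28 ± 0.34 on the log2 scale (adjusted p 1.00). In that contrast edgeR called 0.00% of genes and DESeq2 called 1, while 398 had an unadjusted edgeR p under 0.05. Each sex showed the higher 3 week values, as the library values above give them. Both sexes entered the contrast through which the gene was chosen, so this is a description.

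Cell type markers were summed in the same Trap libraries. The 15 astrocyte markers summed to 55179 to 72331 CPM at 3 weeks (median 68169 CPM). In uninjured mice they summed to 65930 to 73776 CPM (median 67366 CPM), and 1 of the 15 was called, lower at 3 weeks. The 8 markers of oligodendrocyte precursors summed to 864 to 1131 CPM at 3 weeks (median 988 CPM). In uninjured mice they summed to 795 to 961 CPM (median 864 CPM), with none of 8 called. The 14 neuron markers summed to 714 to 1402 CPM at 3 weeks (median 891 CPM). In uninjured mice they summed to 846 to 1090 CPM (median 1000 CPM), with none of 14 called. The female 3 week replicate 3 held the lowest astrocyte and the highest neuron sum. Blood markers had a median sum of 1504 CPM at 3 weeks and 1449 CPM in uninjured mice. Of these, S100a9 differed by 2.12 ± 0.64 on the log2 scale and Hba-a1 by -0.22 ± 0.42, neither called. Without the pair of libraries that stood apart the Rassf10 difference at 3 weeks was 0.86 ± 0.18. The part of these markers in the Rassf10 values was not tested, and in tissue RNA fewer cells of a type and less RNA per cell cannot be told apart.

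In Input, the libraries that had no share in choosing the gene, Rassf10 gave 12 to 42 counts per library. The male libraries had 1.38 CPM uninjured, 1.41 CPM at 3 weeks, 1.32 CPM at 5 weeks and 0.672 CPM at 7 weeks. The female libraries had 1.13 CPM uninjured, 0.419 CPM at 3 weeks, 0.987 CPM at 5 weeks and 1.80 CPM at 7 weeks. The ranges of all states overlapped. The 3 week difference from uninjured in Input was -0.47 ± 0.52 on the log2 scale (adjusted p 0.757) beside 1.08% of genes called, and it was -1.66 without the male 3 week library and 0.22 without the female one, where the remaining 3 week library is assumed to vary like the other groups. At 5 weeks it was -0.13 ± 0.51 (adjusted p 0.962; 0.107% of genes called) and at 7 weeks -0.02 ± 0.51 (adjusted p 1.00; 0.214% called). The 3 week effect in Trap minus that in Input was 1.35 ± 0.49, a description with no test, since it contains the Trap contrast through which the gene was chosen. In that comparison edgeR called 0.00% of 17494 genes, the other 9 members among them, with 422 genes at an unadjusted p under 0.05. A change of Rassf10 in whole tissue was not detectable with 2 Input libraries a state and 12 to 42 counts per library.

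Rassf10 was 4.10-fold higher in Trap than in Input, a log2 difference of 2.04 ± 0.17 (edgeR, adjusted p 1.66e-13). This average takes in the 3 week Trap libraries through whose high values the gene was chosen. In uninjured mice alone the means were 3.46 CPM in Trap (n = 6) and 1.26 CPM in Input (n = 2). Rassf10 was higher in Trap in 8 of 8 pairs of the replicate 1 libraries of one sex and state. In the uninjured pairs the log2 difference was 1.11 in females and 1.27 in males. Of 16804 genes tested between the fractions 88.0% were called, 43.8% higher and 44.2% lower, so a call in itself sets no gene apart here. All 10 family members were called, 3 of them higher and 7 lower. Of the lower ones, Rassf6 and Rassf7 passed the filter on low counts through Input, where they are higher. Their lower calls therefore lend no support to a direction of the family. The median log2 difference of the 10, Rassf6 and Rassf7 included, was -1.65, beside 0.01 over all genes tested. DESeq2's size factors moved the median of all genes to -0.12, and all 10 members were called in the same direction under each of the 37 alternatives.

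Among the members with a SARAH domain, Rassf1 (ENSMUSG00000010067.13, chromosome 9, 107551555 to 107562267, plus strand), a microtubule-binding tumour suppressor that can activate the Mst kinases, was higher in Trap by 0.97 ± 0.08 on the log2 scale (adjusted p 2.79e-13). It averaged 15.0 ± 2.48 CPM in Trap and 7.62 ± 0.934 CPM in Input, and no Input library reached the lowest Trap library (8.78 CPM at most against 10.5 CPM at least). Its estimates were not whole numbers in 26 of 32 libraries and its exons overlap those of Gm9917 on the opposite strand over 2496 bases, so the split of reads between these genes is uncertain. In Trap its mean was 13.5 ± 1.95 CPM in uninjured mice, 16.5 ± 2.05 CPM at 3 weeks, 15.0 ± 1.69 CPM at 5 weeks and 14.9 ± 3.42 CPM at 7 weeks. The 3 week difference of 0.29 ± 0.12 did not pass the test (unadjusted p 0.0210, adjusted p 0.455), although 3 of 6 libraries lay above the highest uninjured one. Between males and females it differed by 0.18 ± 0.08 (unadjusted p 0.0371, adjusted p 0.487).

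Rassf2 (ENSMUSG00000027339.15, chromosome 2, 131989415 to 132030258, minus strand), which binds K-Ras and stabilises Mst2, was the member with the highest level in Trap. It averaged 245 ± 19.0 CPM in Trap and 113 ± 6.52 CPM in Input and was higher in Trap by 1.11 ± 0.05 (adjusted p 1.23e-21). Every Trap library, from 181 to 273 CPM, lay above every Input library, from 104 to 121 CPM. Across the states its Trap mean was 244 ± 13.3 CPM in uninjured mice, 254 ± 19.8 CPM at 3 weeks, 246 ± 8.87 CPM at 5 weeks and 236 ± 28.5 CPM at 7 weeks, with overlapping ranges. Its differences from uninjured were 0.05, 0.01 and -0.05 at 3, 5 and 7 weeks, each with an SE of 0.07 and none called (adjusted p 0.916, 1.00 and 1.00). The last of these was 0.02 without the pair of libraries that stood apart, since the male 7 week replicate 2 held the lowest value.

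Rassf3, Rassf4, Rassf5 and Rassf6 were lower in Trap. Rassf4 (ENSMUSG00000042129.8, chromosome 6, 116633008 to 116673952, minus strand), a K-Ras binding member, had 3.49 ± 0.972 CPM in Trap and 66.1 ± 4.93 CPM in Input, a log2 difference of -4.24 ± 0.09 (adjusted p 9.37e-31). Rassf5 (ENSMUSG00000026430.16, chromosome 1, 131176410 to 131245258, minus strand), the Rap1 effector that promotes integrin adhesion in lymphocytes, had 3.70 ± 0.791 CPM in Trap and 44.8 ± 2.52 CPM in Input, a log2 difference of -3.60 ± 0.08 (adjusted p 4.85e-31). No Trap library of either gene, at most 5.99 and 5.13 CPM, came near the lowest Input library, at 59.6 and 41.0 CPM. Rassf5 shares 78 exonic bases with Eif2d on the opposite strand.

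Rassf3 (ENSMUSG00000025795.8, chromosome 10, 121410350 to 121476347, minus strand), linked in human cells to stability of the tumour protein p53 through Mdm2, had 6.03 ± 1.01 CPM in Trap and 21.2 ± 1.36 CPM in Input. Its log2 difference was -1.82 ± 0.07 (adjusted p 7.25e-23). Rassf6 (ENSMUSG00000029370.10, chromosome 5, 90603076 to 90640657, minus strand), which can bind the Mst kinases and promote apoptosis, had 0.223 ± 0.140 CPM in Trap and 1.40 ± 0.229 CPM in Input, a log2 difference of -2.63 ± 0.20 (adjusted p 3.67e-15). It had 0 to 13 counts in Trap and was at 0 in 2 libraries, where 3 counts would stand for 0.163 CPM, so it was near the limit of this depth in Trap and passed the filter on low counts in that fit through Input. Microglia markers fell in Trap as well, to a sum of 57.0 to 80.2 CPM against 291 to 407 CPM in Input. Median sums also fell for neurons (985 against 8424 CPM), oligodendrocytes (4011 against 17624 CPM) and endothelial cells (12.7 against 106 CPM). Those of the other marker lists were higher in Trap. The part of any of these cell types in the values of Rassf4, Rassf5 and Rassf6 was not tested.

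None of these 4 genes was called with fracture in Trap. Rassf4 differed from uninjured by 0.16 ± 0.24 at 3 weeks, 0.27 ± 0.24 at 5 weeks and 0.15 ± 0.24 at 7 weeks (adjusted p 0.928, 1.00 and 1.00). The 3 week value turned to -0.16 without the pair of libraries that stood apart, of which the female 3 week replicate 3 held the highest Rassf4 level of all Trap libraries (5.99 CPM). Rassf5 differed by 0.18 ± 0.20, 0.16 ± 0.20 and 0.29 ± 0.20 and Rassf3 by 0.13 ± 0.15, 0.04 ± 0.15 and -0.04 ± 0.15 at the same times, with adjusted p of at least 0.887. Rassf6 did not pass the filter on low counts in Trap. Without that filter it differed by 0.70 ± 0.56 at 3 weeks, an estimate from 0 to 13 counts per library.

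Of the N-terminal class, Rassf8 (ENSMUSG00000030259.12, chromosome 6, 145746748 to 145821079, plus strand), a junctional protein whose Drosophila relative binds the ASPP protein, had 25.9 ± 3.18 CPM in Trap and 56.8 ± 3.56 CPM in Input. The log2 difference was -1.14 ± 0.06 (adjusted p 9.13e-19), and no Trap library (31.7 CPM at most) reached an Input library (53.3 CPM at least). With fracture it differed from uninjured in Trap by 0.10, 0.02 and -0.04 at 3, 5 and 7 weeks, each with an SE of 0.11 and none called. Rassf7 (ENSMUSG00000038618.12, chromosome 7, 141215860 to 141218658, plus strand), which acts on microtubules in mitosis, had 0.191 ± 0.172 CPM in Trap and 1.07 ± 0.291 CPM in Input, a log2 difference of -2.41 ± 0.28 (adjusted p 1.41e-10). It had 0 to 10 counts per library in Trap and was at 0 in 3 of 24, where 3 counts would stand for 0.151 to 0.181 CPM. Like Rassf6, it was near the limit of this depth in Trap. It passed the filter on low counts in the fit of Trap against Input through Input, where it had 15 to 38 counts. In Trap alone it too did not pass that filter, so 8 of 10 members were tested there against fracture.

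Rassf9 (ENSMUSG00000044921.5, chromosome 10, 102512222 to 102549736, plus strand), known as a partner of the enzyme Pam on recycling endosomes and for its role in mouse skin, had 0.340 ± 0.252 CPM in Trap and 0.973 ± 0.493 CPM in Input. The log2 difference was -1.49 ± 0.23 (adjusted p 1.88e-07), lower in Trap in 8 of 8 replicate 1 pairs. In Trap it had 1 to 18 counts per library and passed the filter on low counts only through the groups where it is higher. Its 5 week libraries held 0.269, 0.484 and 0.397 CPM in males and 0.600, 0.644 and 0.815 CPM in females, against 0.0641, 0.0490 and 0.363 CPM in uninjured males and 0.0520, 0.341 and 0.352 CPM in uninjured females. The ranges overlapped, although 5 of 6 libraries at 5 weeks lay above the highest uninjured one. The difference of 1.33 ± 0.54 did not pass the test (unadjusted p 0.0208, adjusted p 1.00).

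In Input, too, Rassf9 was highest at 5 weeks, at 1.71 CPM in the male and 1.69 CPM in the female library, while the 6 libraries of the other states ran from 0.378 to 1.01 CPM. That difference from uninjured was 1.19 ± 0.39 (unadjusted p 0.00695, adjusted p 0.373), so it was not called either. The Trap and Input libraries of a state may come from the same tissue, and this pair of values was picked out after it was seen. At 3 weeks in Trap Rassf9 differed by 0.29 ± 0.66, a value that became -0.58 without the pair of libraries that stood apart, because the female 3 week replicate 3 held 0.870 CPM and the other 5 libraries 0.0609 to 0.241 CPM. At 7 weeks it differed by 0.82 ± 0.59 (adjusted p 1.00).

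**Figure D2:**
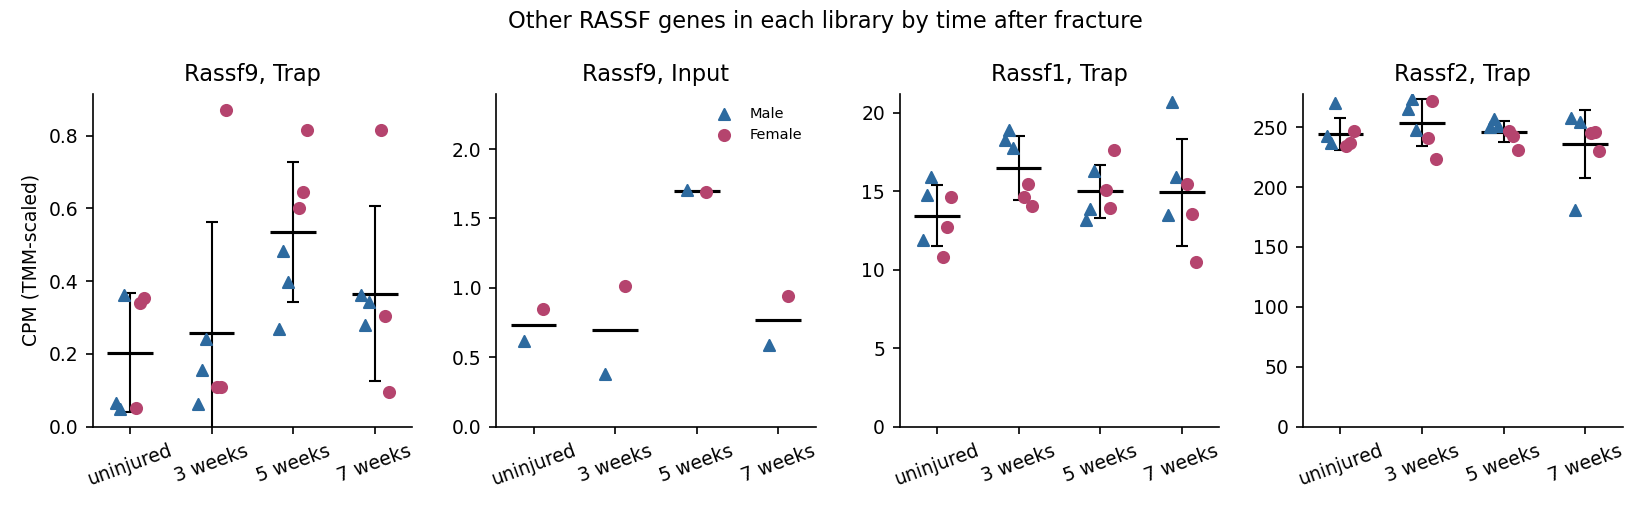
Levels of Rassf9 in Trap and in Input, and of Rassf1 and Rassf2 in Trap, in TMM-scaled CPM (y axes, each with its own scale from 0) by time after fracture (x axes). Triangles are male and circles female libraries, lines are means and bars are SDs in Trap (n = 6 a state; a lower bar that would pass 0 is cut there). Both Input libraries at 5 weeks stand near 1.7 CPM for Rassf9, and the male 7 week library of Rassf2 at 181 CPM stands below the others.

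Across the fracture contrasts the count of members other than Rassf10 called was 0, in Trap (7 tested) and in Input (9 tested) alike, by edgeR and by DESeq2 and in every alternative run. DESeq2 gave no adjusted p for some members, among them Rassf9 at 3 weeks in Trap and at 3 and 5 weeks in Input. It could not call them there. Of all genes, edgeR called 0.111% at 3 weeks and 0.00% at 5 and 7 weeks in Trap. In Input it called 1.08%, 0.107% and 0.214% at 3, 5 and 7 weeks. An unadjusted p under 0.05 was reached by Rassf1 at 3 weeks in Trap, as by 1329 of all 15380 genes, by Rassf9 at 5 weeks in Trap, as by 425 of 15380, and by Rassf9 at 5 weeks in Input, as by 1427 of 16803. The median log2 difference of the 8 members tested in Trap was 0.17 at 3 weeks, 0.16 at 5 weeks and 0.14 at 7 weeks, beside a median within 0.01 of 0 over all genes tested. These members include Rassf10, chosen for its 3 week value, and Rassf9, which passed the filter through the groups where it is higher, and the median of the other 6 was 0.15 at 3 weeks, 0.10 at 5 weeks and 0.05 at 7 weeks. In Input the median of the 10 members was -0.09, -0.03 and 0.00 at these times.

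**Figure D3:**
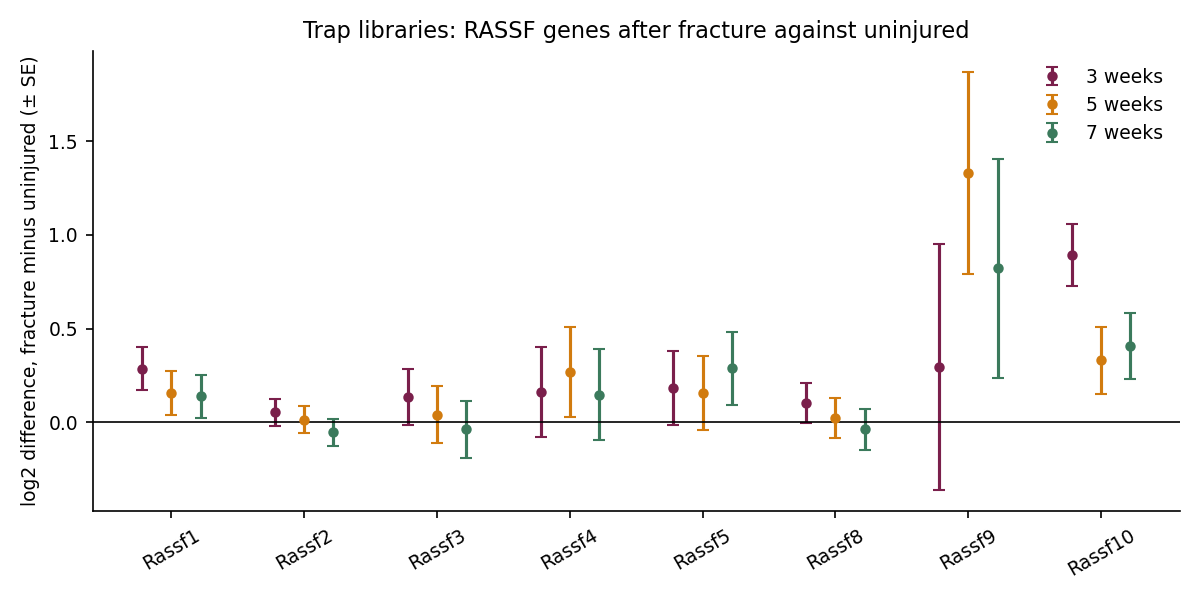
Log2 difference of each fracture time from uninjured in Trap (y axis; points are estimates, bars are SEs) for the 8 RASSF genes that passed the filter on low counts (x axis), with 3, 5 and 7 weeks in this order. Rassf10 stands at 0.89 at 3 weeks and at 0.33 and 0.41 later, and Rassf9 has the widest bars, up to 0.66.

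Levels were compared between genes per kilobase of merged exons. In Trap Rassf2 stood first at 20.4 ± 1.58 CPM per kb, which was 63.7% of the sum of the 10 members. Rassf8 followed at 4.65 ± 0.572, Rassf1 at 2.56 ± 0.424, Rassf3 at 1.58 ± 0.265, Rassf10 at 1.35 ± 0.391, Rassf5 at 0.926 ± 0.198 and Rassf4 at 0.379 ± 0.106 CPM per kb. Rassf7 (0.0888), Rassf6 (0.0523) and Rassf9 (0.0465 CPM per kb) stood last. Of neighbours in this order, Rassf2 and Rassf8 alone had ranges over the libraries that did not overlap, and Rassf8 and Rassf1 changed places when the longest transcript gave the length. In Input the order was Rassf5 (11.2), Rassf8 (10.2), Rassf2 (9.46), Rassf4 (7.18), Rassf3 (5.55), Rassf1 (1.30), Rassf7 (0.496), Rassf6 (0.330), Rassf10 (0.326) and Rassf9 (0.133 CPM per kb). With the longest transcript as the length, Rassf2 stood first in Input at 13.8 CPM per kb, before Rassf5 at 12.9 and Rassf8 at 10.4. By merged exons Rassf2 and Rassf4, Rassf4 and Rassf3, Rassf3 and Rassf1, and Rassf1 and Rassf7 did not overlap in Input. Rassf10 thus held the fifth place in Trap and the ninth in Input, where it overlapped both of its neighbours.

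**Figure D4:**
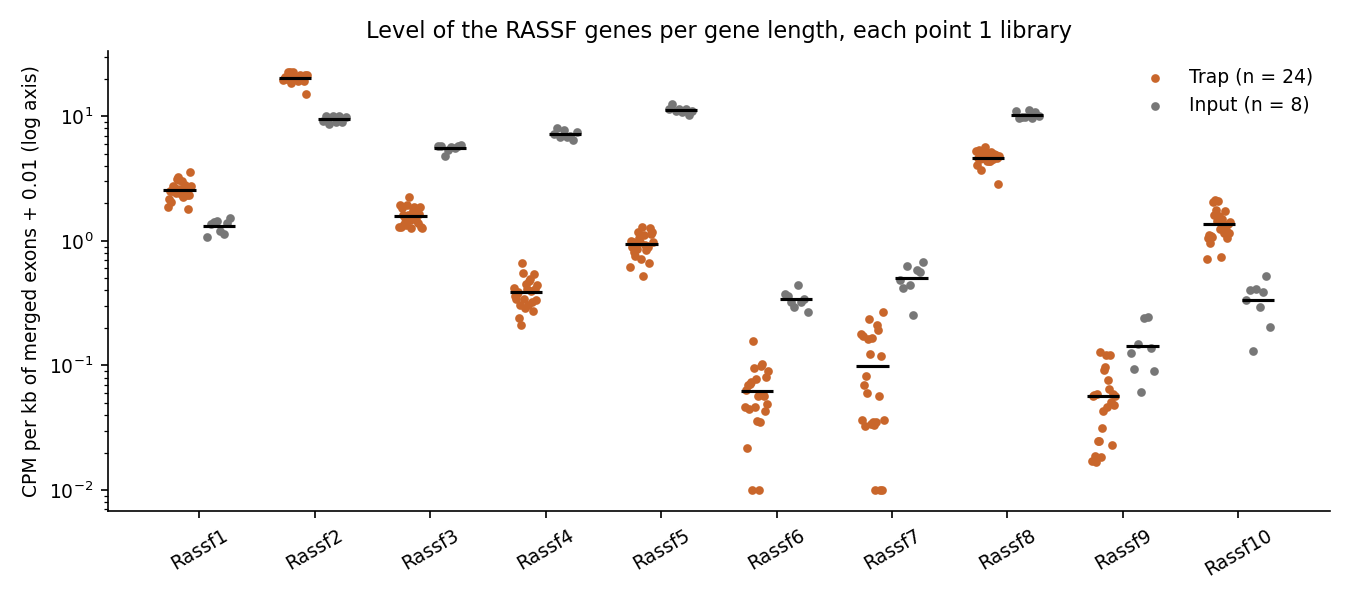
Level of each RASSF gene in CPM per kilobase of merged exons plus 0.01 (y axis, log scale), 1 point per library, with Trap (n = 24) left of Input (n = 8) and lines at the means. Rassf2 in Trap is at 20.4 and Rassf5 in Input at 11.2 CPM per kb, while Rassf6, Rassf7 and Rassf9 in Trap lie below 0.1 CPM per kb on average.

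Genes around the family were described from 4 lists. Over all genes tested between the fractions, 43.8% were called higher in Trap and 44.2% lower, and their median is given above. Of 22 Hippo kinases and scaffolds 17 were higher in Trap, 4 lower and 1 not called, with a median log2 difference of 1.01. Amot, a scaffold that holds Yap1 at junctions, had 269 ± 45.8 CPM in Trap and 27.6 ± 3.34 CPM in Input (3.28 ± 0.10). Wwc1, an upstream scaffold also called Kibra, had 218 ± 21.5 CPM in Trap and 49.7 ± 3.01 CPM in Input (2.13 ± 0.06). Its relative Wwc2 (1.66 ± 0.07) and the Lats cofactor Mob1a (1.82 ± 0.06) were higher too. The Mst kinases Stk3 and Stk4 were higher by 1.42 ± 0.10 and 0.82 ± 0.05, and the Mst scaffold Sav1 had a log2 difference of -0.67 ± 0.08, at 5.30 ± 0.881 CPM in Trap and 8.43 ± 0.804 CPM in Input.

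Of the 18 genes of the list of Yap1, Taz, their Tead partners and their targets, 16 were tested, 13 higher and 3 lower, with a median of 1.31. Yap1 had 124 ± 7.71 CPM in Trap and 14.9 ± 1.15 CPM in Input (3.06 ± 0.05), and Wwtr1 67.6 ± 5.29 CPM in Trap and 10.4 ± 1.09 CPM in Input (2.70 ± 0.06). The targets F3, which encodes tissue factor, and Axl, a receptor kinase, were higher by 3.47 ± 0.07 and 3.06 ± 0.06, while the target Ccn2 had 0.640 ± 0.257 CPM in Trap and 7.41 ± 0.867 CPM in Input (-3.51 ± 0.12). This list shares Lats2, Ajuba, Ptpn14 and Amotl2 with the list above.

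Of 14 Ras and Rap GTPases, the ligands of the Ras association domain, 10 were higher, 3 lower and 1 not called, with a median of 0.76. Mras had 453 ± 29.8 CPM in Trap and 94.7 ± 9.25 CPM in Input (2.26 ± 0.04), and Rras (2.61 ± 0.09) and Rap2b (2.20 ± 0.07) were higher as well. Rit2, a neuronal GTPase, had 8.10 ± 2.38 CPM in Trap and 141 ± 3.92 CPM in Input (-4.12 ± 0.10). Of 15 RASSF binding partners 7 were higher, 6 lower and 2 not called, with a median of 0.19, and this list shares Stk3 and Stk4 with the Hippo list. Its 2 ASPP genes went opposite ways. Trp53bp2 had 195 ± 28.7 CPM in Trap and 37.2 ± 2.63 CPM in Input (2.39 ± 0.09), and Ppp1r13b 9.25 ± 0.985 CPM in Trap and 59.0 ± 6.65 CPM in Input (-2.67 ± 0.06). Moap1, a Rassf1 partner in apoptosis, had a log2 difference of -1.49 ± 0.08, and Itgb2, the leukocyte integrin chain downstream of Rassf5, one of -2.74 ± 0.16.

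**Figure D5:**
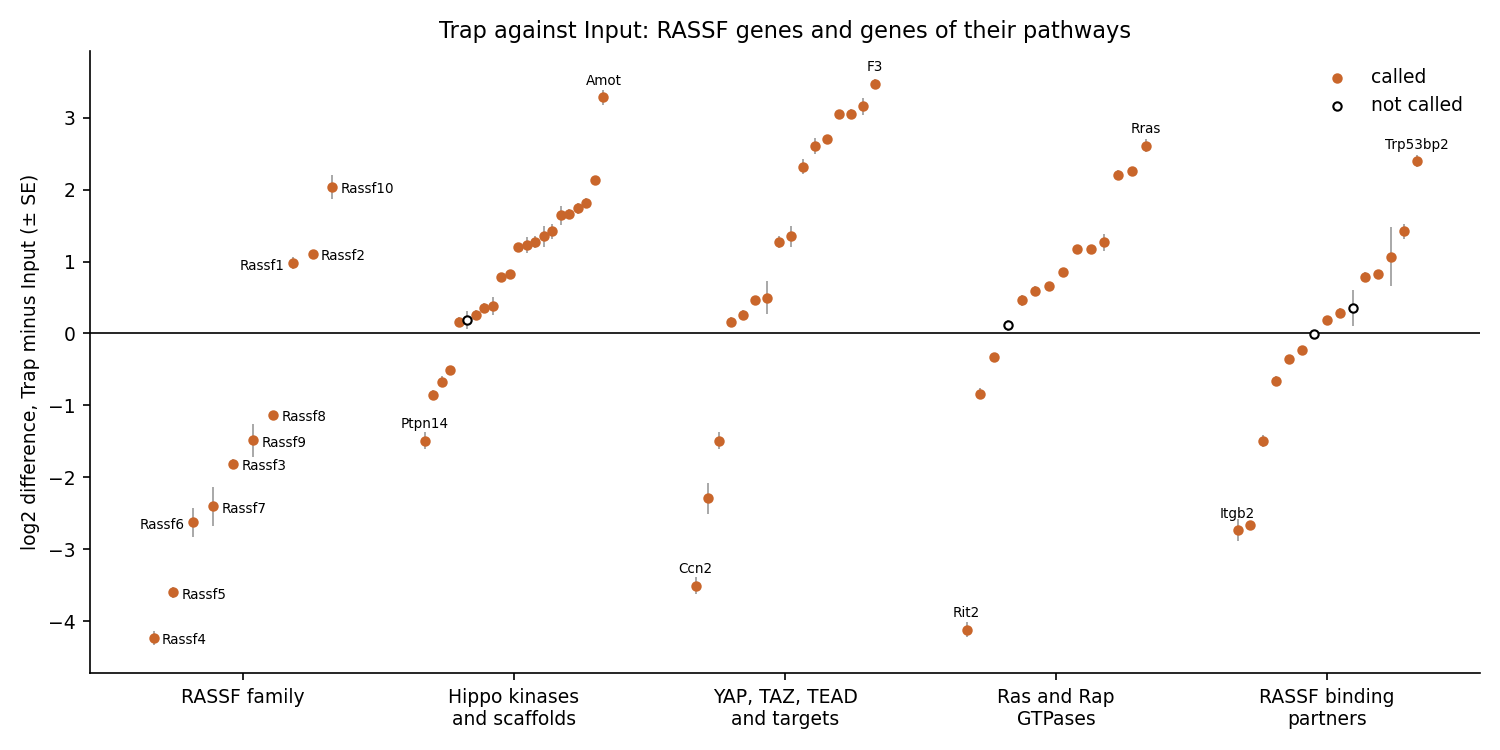
Log2 difference of Trap from Input (y axis; points are estimates, bars are SEs) for the 10 RASSF genes and the genes of 4 lists around them (x axis, ordered by value within each list). Filled points passed the test and open points did not, and Rassf10 at 2.04 is the highest RASSF gene, below Amot at 3.28, F3 at 3.47 and Rras at 2.61.

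None of the genes on these 4 lists was called between a fracture time and uninjured mice in Trap or Input, or between the sexes in Trap. Of all genes tested in Trap, 0.111% were called at 3 weeks, 0.00% at 5 and 7 weeks and 0.195% between the sexes. In Input 1.08%, 0.107% and 0.214% were called at 3, 5 and 7 weeks. The smallest p of each list at 3 weeks in Trap belonged to Amotl1 (-0.24 ± 0.08, adjusted p 0.304), Vgll4 (0.18 ± 0.08, adjusted p 0.567), Mras (0.10 ± 0.05, adjusted p 0.657) and Ppp1cb (-0.12 ± 0.05, adjusted p 0.497). At 5 weeks it belonged to Sav1 (-0.22 ± 0.12), Ccn2 (-0.46 ± 0.36), Mras (0.09 ± 0.05) and Itgal (-0.80 ± 0.51), and at 7 weeks to Sav1 (-0.26 ± 0.12), Ccn1 (0.24 ± 0.12), Rap1b (-0.09 ± 0.06) and Itgal (-1.72 ± 0.59), each with an adjusted p of 1.00. At 3 weeks the median of the Hippo list was -0.04, of the Yap1 list 0.06, of the GTPases 0.04 and of the partners 0.02. Of the genes tested among the family and these lists, Rassf10 alone was called at 3 weeks, the call for which it was chosen. Between males and females the smallest p belonged to Dchs1 (-0.37 ± 0.13, adjusted p 0.331), Lats2 (-0.18 ± 0.07, 0.407), Mras (0.12 ± 0.04, 0.267) and Itgb2 (-0.78 ± 0.28, 0.359). In Input at 3 weeks it belonged to Lats2 (-0.30 ± 0.09, adjusted p 0.119), Mras (0.19 ± 0.06, 0.150) and Ppp1cb (-0.14 ± 0.06, 0.287).

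The genes most like Rassf10 over the 24 Trap libraries, by Pearson's r of log2 CPM among 12087 genes with a mean of at least 1 CPM, were Dolpp1 (r = 0.692), Bahd1 (0.674), Hnrnpdl (0.639), Prrg1 (0.639) and Olfml2b (0.624). These libraries share their states and sexes, and the values are a description. By Spearman's rho only Bahd1 (0.724) remained among the first 5. After the mean of each sex and state was taken out none of the 5 remained, and Tsc22d2 (0.901) and Hoxd3 (0.817) came first. Within the family r with Rassf10 was 0.326 for Rassf1, 0.226 for Rassf2 and 0.210 for Rassf8, and lower for Rassf3, Rassf4 and Rassf5.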

How the data were processed

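The authors deposited 1 table of RSEM expected counts per gene for all 32 libraries. Per the submitters' processing notes, FastQC, Trim Galore, STAR, RSEM and GRCm38 were used; versions are not given in the sources used here, and per the labels' protocols libraries were poly-A selected. The deposited expected counts, of which 6.21% to 8.53% per library had a fractional part, were rounded. Strand-specific counting is not stated. Columns were matched to samples by the column letter in the labels. Coordinates and exon lengths came from GENCODE M21 on GRCm38, in which 55141 of 55938 identifiers had a symbol.

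The quasi-likelihood test of edgeR 4.0.16 (R 4.3.3) was applied 2-sided after filterByExpr and TMM scaling, with robust estimation, and was checked on simulated data. Benjamini-Hochberg adjustment covered all genes tested in a comparison. A gene was called at an adjusted p under 0.05. The 24 Trap libraries were fitted with 1 mean per sex and state, the 8 Input libraries with state and sex, and Trap against Input with sex and state as terms. SEs came from the F statistic. CPM used TMM factors over all 32 libraries, and correlations used log2 CPM with a prior count of 2. The alternatives were DESeq2 1.42.0 as the test, its size factors, no filter, only the groups compared, a replicate block, leaving out the pair of libraries that stood apart and leaving out each library.

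The members and the gene lists were chosen with earlier results of these data known. All 10 members are named. Of each list around them up to 4 called genes with the smallest p were named per comparison, or 1 where none was called, and Stk3, Stk4, Sav1 and Ccn2 in the Trap against Input comparison were named after their values were seen. In the main fits replicate numbers were not taken to pair libraries. Replicate 1 libraries of Trap and Input of one sex and state were also set side by side as pairs. An alternative fit of Trap against Input paired them too. Whether such a pair shares tissue is not given, nor is the share of all genes with the same direction in every pair. Per the file headers, a code joins number and sex across states in all sets but the first female one, without saying what it marks. For same sex and number 7 of 36 pairs of libraries had deviations correlated above 0.1. So had 6 of 72 pairs of other sex and other number and 1 of 72 of same sex and other number. Of pairs of other sex and same number, 0 of 36 did.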

Additional observations from a re-analysis of the deposited data

Results flagged for a closer look

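Of 50 groups of member values, 7 held a library whose gap to its nearest neighbour was large for the range of its group; chance gives about 1 in 20. Rassf10 in the uninjured female replicate 1 of Trap was 2.44 CPM, and the other 5 uninjured libraries lay between 3.33 and 3.83 CPM. Without it the 3 week difference of Rassf10 was 0.81 ± 0.17, the lowest of the fits that left out 1 library.

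Rassf2 was 270 CPM in the uninjured male replicate 3 of Trap, where the others lay between 234 and 247 CPM. The male 7 week replicate 2 of Trap held 181 CPM of Rassf2, against 230 to 258 CPM in the others, and 15.8 CPM of Rassf8, against 25.7 to 27.7 CPM.

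Rassf9 stood at 0.870 CPM in the female 3 week replicate 3 of Trap, against 0.0609 to 0.241 CPM in the others, in a library with a neuron marker sum of 1402 CPM. It stood at 0.814 CPM in the female 7 week replicate 1, against 0.0945 to 0.362 CPM. Rassf3 was 18.2 CPM in the female 3 week Input library, and the other 7 Input libraries lay between 20.5 and 22.3 CPM.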

How the results depend on the processing

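The count of members called, Rassf10 aside where it was chosen, was the same in every comparison under every alternative run. A missing adjusted p of DESeq2 was counted as not called. Of 2521 single values of members under the alternatives, 2496 kept their side of the threshold with no change of sign beyond 1 SE, 7 lost the call (Rassf10 at 3 weeks, leaving out 1 library) and 18 uncalled values changed sign by more than 1 SE.

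The number of all genes called moved more. At 3 weeks in Trap it was 17, and 34 without the filter, 135 by DESeq2 and 106 without the pair of libraries that stood apart. For 7 against 3 weeks it was 3, and 9, 57 and 51 under the same alternatives, and 0 with only the groups compared. Between the sexes it was 30, and 93 by DESeq2 and 46 without the pair. At 5 weeks in Trap and for the sex difference of the 3 week effect it was 0, and 1 by DESeq2. Leaving out 1 library gave 3 to 57 genes at 3 weeks (57 without the male 7 week replicate 2), 0 to 38 for 7 against 3 weeks and 18 to 47 between the sexes. In Input it gave 34 to 346 at 3 weeks, 7 to 49 at 5 weeks and 16 to 50 at 7 weeks, where 182, 18 and 36 were called, and 0 to 1 for Trap minus Input. The cause was not tested.

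Replicate numbers shared across groups were tried as a block. The replicate block gave 44 genes at 3 weeks and 11 for 7 against 3 weeks, and a block within sex, chosen after seeing the data, gave 77 and 50. The block changed no call of a member, and Rassf10 at 3 weeks had an adjusted p of 0.0193 with it and 0.0149 with the block within sex. Both values come from the contrast through which Rassf10 was chosen, and nothing is read from them. Deviations of same-numbered libraries of a sex had correlations from -0.07 to 0.22. Pairs of other sex and other number ran from -0.21 to 0.23, and pairs of same sex and other number from -0.24 to 0.10. Of 24 libraries 21 correlated best with their own number and sex, which is also what the code in the column headers joins. Whether that code marks a shared batch or day is not given in the sources used here.

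Rassf6, Rassf7 and Rassf9 had 0 to 18 counts in Trap, so a change with fracture was not detectable at this depth unless large. DESeq2 gave no adjusted p for some members of low count, among them Rassf9 at 3 weeks in Trap and Rassf9 and Rassf10 at 3 and 5 weeks in Input.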
